A study of Mus musculus with 9 samples.

Results

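The miRNAs described here are the 3p arms of the hairpins numbered miR-6896 to miR-7094, a run of mouse miRNAs named one after another, of which a large part was annotated from the ends of introns. The members were every row of the deposited table named mmu-miR-N-3p with a whole number N from that of miR-6896 to that of miR-7094 and no letter after it. This gave 197 of the 1978 mature miRNAs in the table, or 9.96%. Numbers 6973 and 7036 had no such row. The rule used names alone and no measured value, but it was set with earlier results of these data known.

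RNA came from exosomes, vesicles that cells release into their medium, of TCMK-1 cells, a line of mouse kidney tubular epithelium whose genotype the labels give as C3H. Every group carried a lentivirus for stable expression, applied at a multiplicity of infection of 100, that also encodes EGFP and a puromycin resistance gene. LV-NC cells carried the empty vector and were cultured normally. H/R-LV-NC cells carried the same vector and went through hypoxia for 24 h at 1% O2 in exosome-free medium, then reoxygenation for 12 h at 21% O2. H/R-LV-BMAL1 cells went through the same hypoxia and reoxygenation (H/R) with a vector that overexpresses BMAL1, a transcription factor of the circadian clock, from a CMV promoter. Each group had 3 libraries. The sources used here do not say whether the 3 were grown as separate cultures, and the p-values then reflect only how far libraries differ, which may be technical. A miRNA library cannot show the level of the BMAL1 transcript, so the overexpression was not checked.

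A mirtron is a miRNA precursor made by splicing. A short intron is cut out by the spliceosome, its lariat is opened, and the intron folds into a hairpin that Dicer can cut without prior cleavage by Drosha. In a conventional mirtron the 5p arm starts at the first base of the intron and the 3p arm ends at its last base, whereas in a tailed mirtron only one of the ends lies at a splice site and nucleases trim the remaining tail. Introns end in the bases AG after a tract rich in pyrimidines (C and U), and begin with GU, so these marks can be read in the arms themselves.

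Sequences are shown for the members on which the results turn, taken from RefSeq for the mouse assembly GRCm38.p6, 5′ to 3′. In the 3p arms the capitals mark the seed, bases 2 to 8, through which a miRNA chiefly pairs with its targets, and the last 2 bases. The first set holds the most abundant members that had a RefSeq entry.
miR-7044-3p: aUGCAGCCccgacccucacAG
miR-7062-3p: aCUAACUUcuccuggccccacAG
miR-6946-3p: uUUCUUCUcuucccuuucAG
miR-6896-3p: uUUCUCUCucucaccuacaaAC
miR-7058-3p: cUCGUUCCuuccuuucuuccAG
The second set holds members that were high in 1 library.
miR-7066-3p: uCUACCCAuugccugccucccAG
miR-7022-3p: aCAAGCCUgaccucugccccCA
miR-7015-3p: uCUCACUGuccucugcacuAG
miR-7033-3p: uGCCUCCAuucucuugggcAG
The third set holds members that had among the smallest p-values in the comparisons with H/R-LV-BMAL1.
miR-7091-3p: aGUGGCUUcugucgucucuAG
miR-7056-3p: cCUCACCUgucucccaccacAG
miR-7092-3p: uGUUCUUUguuuuguuugccuuAG
miR-7046-3p: uGAACCACccaucccccuacAG
miR-7083-3p: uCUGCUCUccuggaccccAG
miR-7013-3p: cCACACUUacuguugccucuucCU
The last set pairs both arms of introns that are hairpins from end to end, with the first 2 bases of the 5p arm in capitals, and adds miR-7023-3p, which shares their seed.
miR-7018-5p: GUgagcagacagggaguggugggg
miR-7018-3p: uCACCCUGcugccggcuugcAG
miR-7068-5p: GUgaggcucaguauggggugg
miR-7068-3p: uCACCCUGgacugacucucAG
miR-7023-3p: uCACCCUGucugcgccccucAG

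Most members carried the mark of a 3′ splice site. Of the 197 members, 173 had a RefSeq sequence, and all 173 were listed by the authors at the position RefSeq gives on that assembly. AG ended 136 of these 173 (78.6%), against 60 of 536 other 3p miRNAs with a sequence (11.2%) and 12 of 172 5p arms of the same hairpins (6.98%). CAG was the usual form, with 119 members, and UAG ended 15. The members were pyrimidine-rich, with a median of 72% C or U, against 54.5% in the other 3p miRNAs and 31.8% in their own 5p arms. miR-6946-3p had 90%, miR-7058-3p 86.4% and miR-7044-3p 57.1%. These are descriptions of annotated sequences and do not depend on the libraries.

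The positions gave the same picture, but they are not separate evidence, since introns end in AG. The last base of 154 of the 197 members (78.2%) was the last base of an intron of the GENCODE M21 annotation on the same strand, against 26 of 632 other 3p miRNAs with a position (4.11%). A further 34 members ended within 3 bases of an intron end, 19 of them 2 bases before it, and 9 lay farther away. All 134 members at an intron end that had a sequence ended in AG, which follows from where they end. Of the 39 others with a sequence, 2 ended in AG. miR-6896-3p belongs to those that stop 2 bases short, and its sequence ends in AC.

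**Figure D1:**
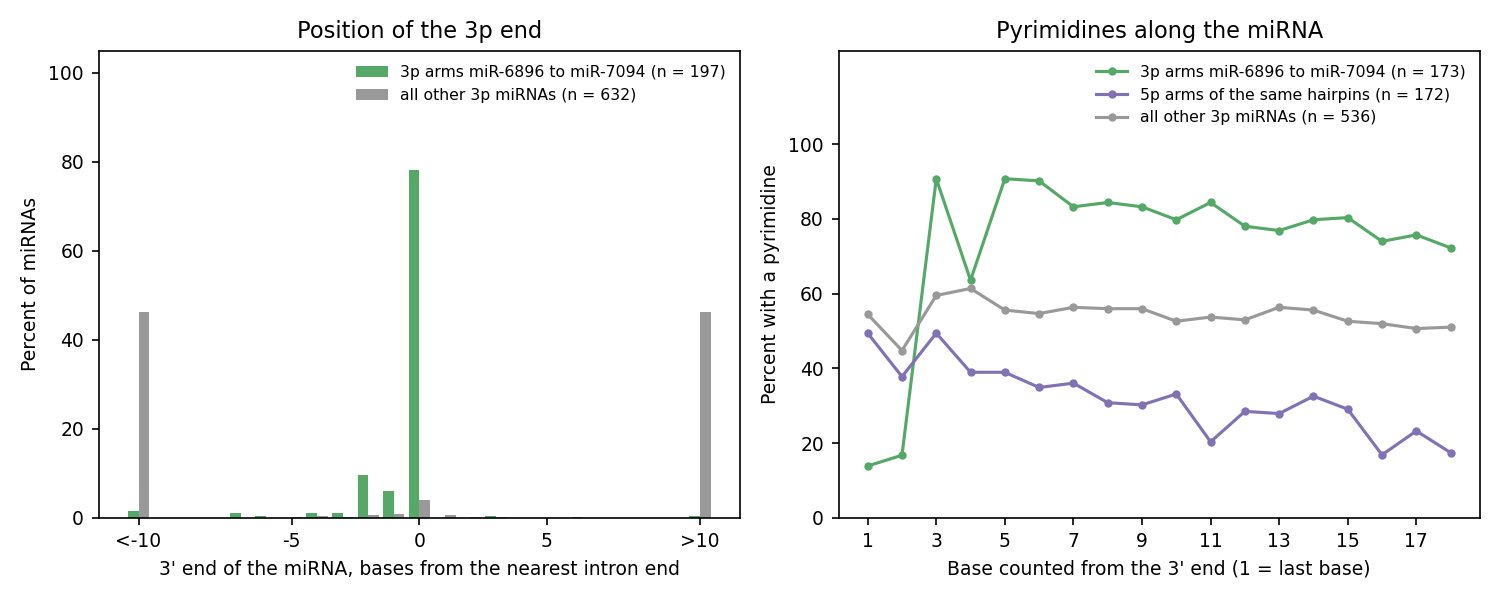
Left, the share of miRNAs (percent) by the distance of their 3′ end from the nearest annotated intron end, in bases, for the 197 members (green) and 632 other 3p miRNAs (grey), where 78.2% of the members and 4.11% of the others sit at 0. Right, the percent of miRNAs with C or U at each base counted from the 3′ end, where members fall to 13.9% at the last base and reach 90.8% at the third from last.

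Few members came from introns that are hairpins from end to end. In 10 of the 154 hairpins at an intron end, the 5p arm also started at the first base of that intron, as the pairs miR-7018 and miR-7068 show with GU at the 5′ end of one arm and AG at the 3′ end of the other. miR-7018 fills an 85-base intron of Hspg2, the gene of the basement membrane proteoglycan perlecan, and miR-7068 a 74-base intron of Cherp. miR-7091 fills a 79-base intron of Dnase1l1, and miR-6923 a 72-base intron of Myh3, an embryonic myosin heavy chain. In the other 144 the 5p arm started inside the intron, after a tail of intron sequence, so they have the form of 5′-tailed mirtrons. The introns had a median length of 494 bases, from 72 to 36269, and 40 of the 154 were 120 bases or shorter. The description as mirtron-like therefore held for the 3′ end of most members, and the description as a short intron for a minority. No precursor processing was measured.

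The members lay on 20 chromosomes, and the 154 at an intron end in 150 genes, of which Ankrd52, Arap3, Cmip and Srebf1 each held 2. Their seeds were diverse, with 166 different seeds among the 173 members with a sequence. Only 6 seeds were shared within the group, by 13 members, and 16 members shared a seed with a miRNA outside the hairpins described here. CACCCUG was the seed of miR-7018-3p, miR-7023-3p and miR-7068-3p. CUGUUCU was that of miR-6932-3p, miR-7039-3p, miR-26a-2-3p and miR-26b-3p, and miR-7002-3p had the seed of miR-218-5p. No member differed from another miRNA in the table by a single base or was contained in one, by the RefSeq sequences.

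Depth differed between the groups. Unique molecular identifiers (UMIs), which count tagged cDNA molecules and not PCR copies, totalled 977490 to 1147768 per LV-NC library, 807158 to 1447040 per H/R-LV-NC library and 3357851 to 4057046 per H/R-LV-BMAL1 library. H/R-LV-BMAL1 replicate 1 stood apart, with a standard deviation (SD) of its log2 deviations from the group mean of 0.721, against 0.405 to 0.521 in the other 8 libraries. Of the markers of kidney epithelium, miR-30a-5p had 5564 to 10910 CPM, the UMIs of a miRNA scaled to the total of its library. miR-192-5p had 123 to 212, miR-194-5p 56.3 to 104, miR-204-5p 5.27 to 24.8 and miR-200c-3p 6.66 to 38.4. miR-200b-3p and miR-141-3p had at most 7.84 and 22.1. Markers of other cells ranged from 292 to 771 CPM for miR-126a-3p of endothelium, 54.5 to 176 for miR-122-5p of liver and 28.8 to 87.9 for miR-223-3p of myeloid cells, to 4.09 to 62.9 for miR-124-3p of neurons. The muscle markers miR-1a-3p and miR-133a-3p had at most 11.7 and 18.6 CPM, and the red cell markers miR-144-3p and miR-451a at most 7.45 and 38.7. The part of these markers in the results was not tested. In exosomes, fewer vesicles of a kind and less of a miRNA per vesicle cannot be told apart.

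The members were detected widely and at low levels. A UMI was found in all 9 libraries for 195 of the 197, and miR-6904-3p and miR-6940-3p were at 0 in 1 library each. The median over members of the mean level was 23.8 CPM, with a range of 1.86 to 893, against a median of 22.6 for the 5p arms, 16.6 for other 3p miRNAs and 19 for all miRNAs. Only 16 members averaged 100 CPM or more, 95 lay from 20 to under 100, 82 from 5 to under 20, and 4 below 5. Members at an intron end had a median of 25.8 CPM and the others 17.4. The 5 most abundant members held 29.5% of all UMIs of the group.

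Among the most abundant members, miR-7044-3p came first, from the end of an intron of Rasgef1a at chr6:118085243-118085263 on the plus strand, where the coordinates, like all that follow, are those of the deposited table. It stood at 792, 959 and 1352 CPM across LV-NC, at 803, 256 and 875 across H/R-LV-NC and at 909, 1351 and 995 across H/R-LV-BMAL1, in replicates 1 to 3 and scaled by TMM, a factor per library that assumes most miRNAs unchanged. The CPM of members in single libraries given from here on are scaled by TMM as well. For miR-7044-3p, H/R-LV-NC replicate 2 was the lowest library, and all 3 H/R-LV-BMAL1 libraries lay above the H/R-LV-NC libraries. That difference was 0.75 ± 0.43 on the log2 scale (SE) with an adjusted p of 0.269 in edgeR, and 0.01 when libraries were scaled by total UMIs.

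miR-6946-3p, at the end of an intron of Sec24c, a gene of the vesicle coat that leaves the endoplasmic reticulum, is at chr14:20690684-20690703 on the plus strand. It stood at 349, 268 and 331 CPM across LV-NC, at 410, 376 and 848 across H/R-LV-NC and at 274, 226 and 247 across H/R-LV-BMAL1. H/R-LV-NC lay above both other groups in every library, with replicate 3 the highest. miR-6896-3p, at chr1:34117408-34117429, stood at 322, 259 and 284 CPM across LV-NC, at 184, 135 and 232 across H/R-LV-NC and at 259, 300 and 563 across H/R-LV-BMAL1. Here, with TMM, H/R-LV-NC lay below both other groups in every library. miR-7058-3p had the same order, at 394, 239 and 302 CPM across LV-NC, at 201, 119 and 178 across H/R-LV-NC and at 289, 295 and 480 across H/R-LV-BMAL1. It ends a 75-base intron of Lat, an adaptor gene of T cell receptor signalling, at chr7:126367971-126367992 on the minus strand.

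miR-6923-3p from Myh3 stood at 311, 208 and 221 CPM across LV-NC, at 202, 195 and 187 across H/R-LV-NC and at 171, 204 and 232 across H/R-LV-BMAL1. miR-7040-3p, from Loxl3 of the lysyl oxidase family, stood at 204, 191 and 155 CPM across LV-NC, at 116, 87.6 and 136 across H/R-LV-NC and at 151, 172 and 289 across H/R-LV-BMAL1. As with miR-6896-3p, its H/R-LV-NC libraries lay below those of the other groups with TMM. When libraries were scaled by total UMIs, H/R-LV-NC overlapped H/R-LV-BMAL1 in miR-6896-3p, miR-7058-3p and miR-7040-3p. miR-6983-3p, from Csf1r, the gene of the receptor for macrophage colony-stimulating factor, ranged from 106 to 155 CPM across H/R-LV-BMAL1, from 131 to 358 across H/R-LV-NC and from 199 to 223 across LV-NC. miR-6986-3p, from the prenyl-protein protease gene Rce1, had 315 CPM in H/R-LV-BMAL1 replicate 1 and 78.7 to 153 in the other 8 libraries.

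A small set of members was carried by H/R-LV-BMAL1 replicate 1. miR-7062-3p, which ends an 84-base intron of Adam8, a membrane metalloprotease gene, at chr7:139986809-139986831 on the minus strand, had 12876 UMIs in that library and 8 to 54 in the other 8. Scaled by TMM this was 4085 CPM against 7.93 to 22.7. miR-7066-3p, from the neurocan gene Ncan, had 3308 UMIs there, 307 in H/R-LV-NC replicate 2 and 4 to 31 elsewhere. miR-7022-3p had 2569 UMIs there and at most 65 elsewhere, miR-7015-3p 754 and at most 22, and miR-7033-3p 407 and at most 17. In these 5 members the library held 67.0% to 96.9% of the CPM summed over all 9. They were 2.6% of the 192 members tested, while 4.04% of all 1682 miRNAs tested had at least 50% in a single library.

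The 5p arms of these 5 hairpins had 24 to 132 UMIs in that library. miR-7062-5p had 44 UMIs in H/R-LV-BMAL1 replicate 1 and 9 to 38 in the other 8 libraries, so the 3p share of the hairpin was 99.7% there and 22.2% to 64.5% elsewhere. miR-7066-5p had 33 UMIs and miR-7022-5p 24 in that library, against 8 to 42 and 12 to 29 in the others. miR-7033-5p was highest there as well, at 132 UMIs against 10 to 63, but held 23.6% of its summed CPM in that library. In the hairpin miR-7024 the 3p share was 0.937% in this library and 41.2% to 60.3% in the others, so that there the 5p arm was the one in excess. The cause was not tested.

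**Figure D2:**
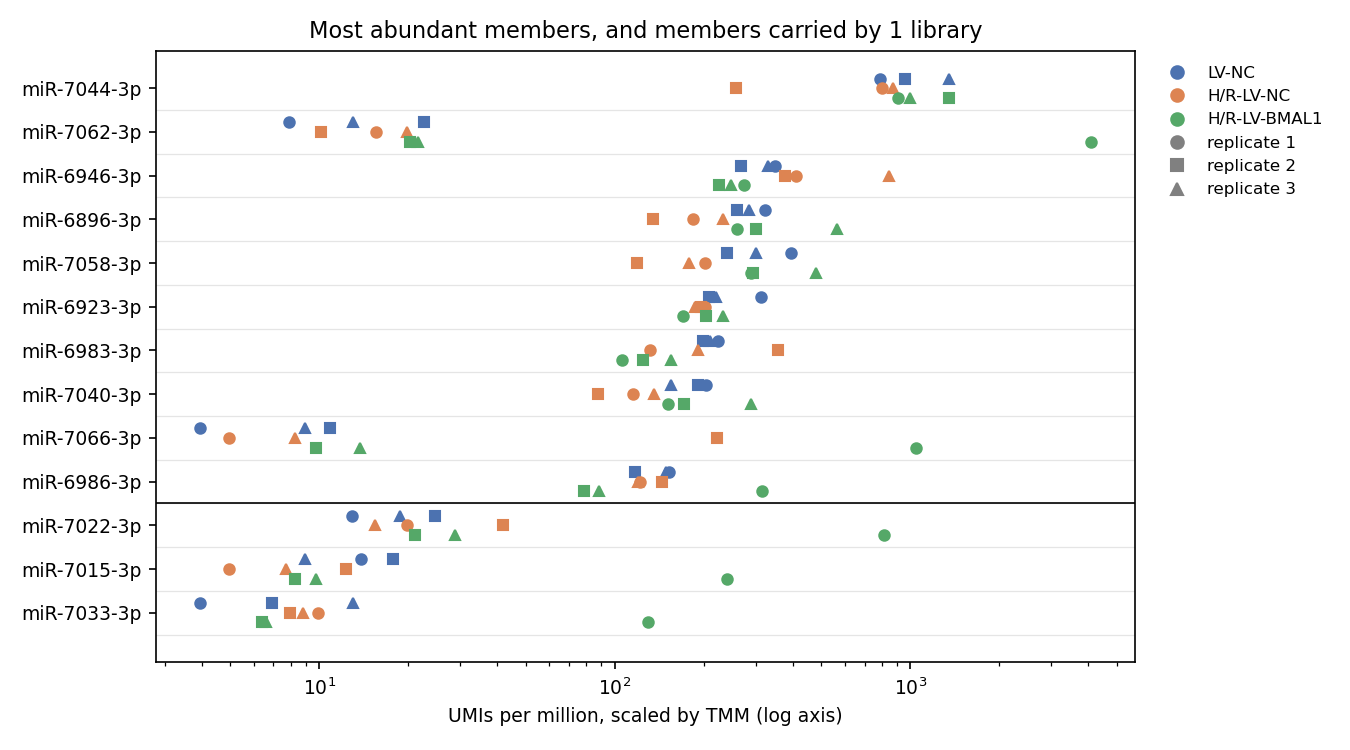
CPM scaled by TMM (log axis) of the 10 most abundant members and, below the line, 3 further members carried by 1 library, with colour for the group and shape for the replicate. miR-7062-3p is at 4085 in H/R-LV-BMAL1 replicate 1 and at 22.7 or less in the other 8 libraries.

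Across hairpins the arms were balanced. The 3p arm had more UMIs than the 5p arm, summed over 9 libraries, in 99 of 196 hairpins (50.5%), with a median 3p share of 50.3%. Among 577 other hairpins with both arms in the table the figures were 48.2% and 48.7%. The 3p arm led in all 9 libraries in 43 hairpins and the 5p arm in 34. miR-6896, miR-6983, miR-7073 and miR-6964 gave at least 92.6% 3p UMIs and led with 3p in all 9 libraries. At the other end miR-6898 had 168 UMIs for its 3p arm and 70317 for its 5p arm, a 3p share of 0.238%. Because of such hairpins the summed UMIs favoured the 5p arms, 200596 to 146216, and the summed 3p share was 36.9% to 46.5% by library.

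**Figure D3:**
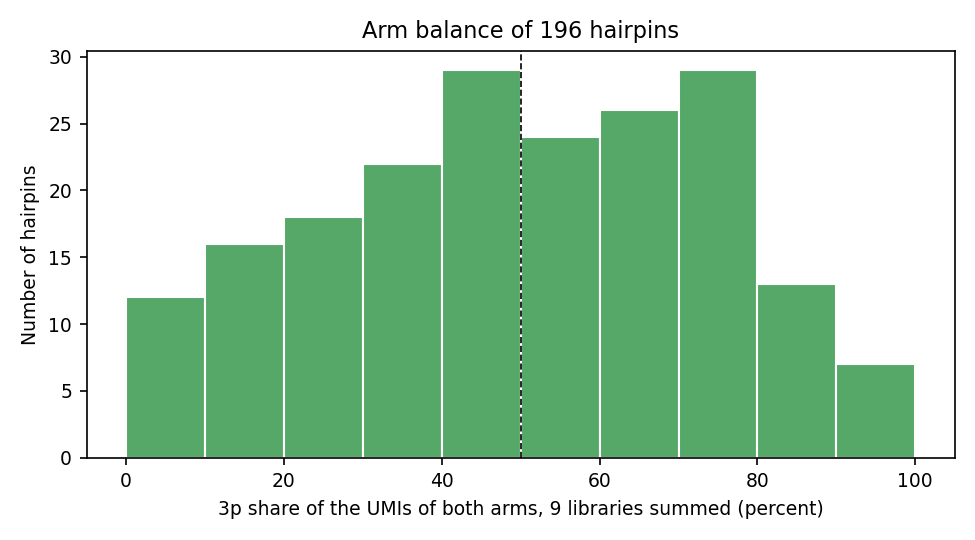
Number of hairpins (of 196) by the 3p share of the UMIs of both arms, summed over 9 libraries, in steps of 10 percentage points. The distribution is broad around the dashed line at 50%, with 12 hairpins at 10% or less and 7 at 90% or more. Some sums rest on H/R-LV-BMAL1 replicate 1. Of the 7, miR-7062, miR-7066 and miR-7022 had 3p above 5p in only 5, 4 and 7 libraries. miR-7024, at 6.63%, had 3p above 5p in 3 libraries.

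As a whole the members took a small part of each library. Their summed UMIs were 0.844%, 0.822% and 0.881% of all UMIs in LV-NC (mean 0.849% ± 0.0302 SD, n = 3). In H/R-LV-NC they were 0.759%, 1.27% and 1.13% (1.05% ± 0.264 SD, n = 3). In H/R-LV-BMAL1 they were 1.31%, 0.586% and 0.443% (0.780% ± 0.466 SD, n = 3). LV-NC was the tightest group, and the H/R groups overlapped, since replicate 1 of each lay on the side of the other group. Without miR-7062-3p and miR-7066-3p the share in H/R-LV-BMAL1 was 0.830%, 0.583% and 0.441%, and replicates 2 and 3 were below every other library with and without them. The means were 0.847%, 1.04% and 0.618%. No test was made of these sums.

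**Figure D4:**
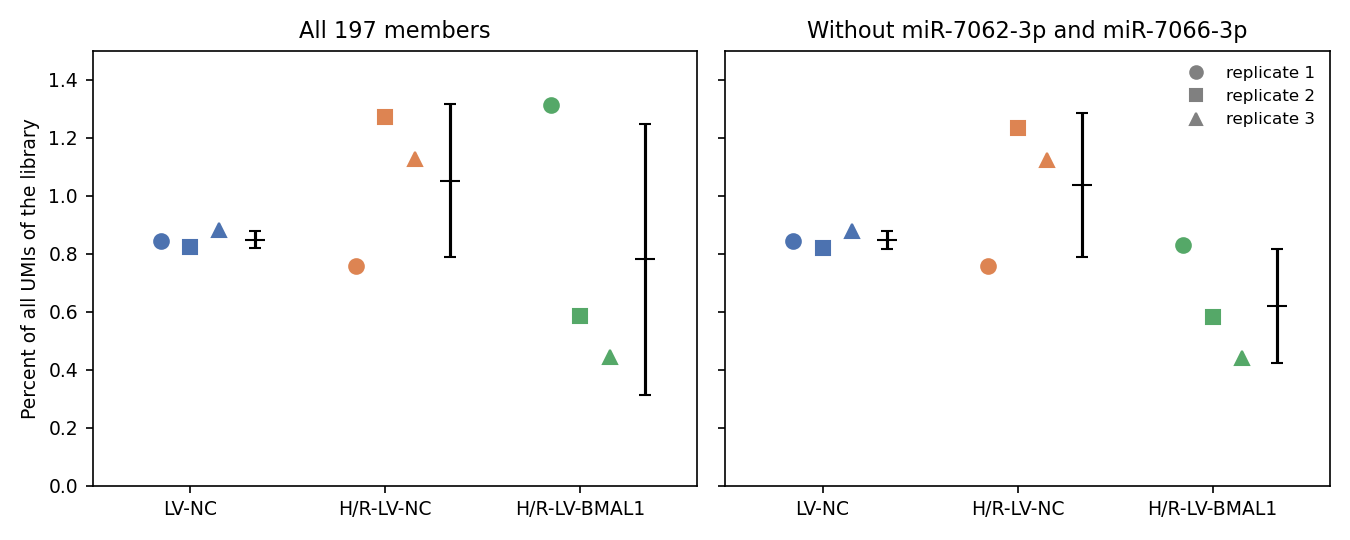
Summed UMIs of the members as a percent of all UMIs of each library (points, shape for the replicate), with the mean ± SD of 3 libraries beside them, for all members (left) and without miR-7062-3p and miR-7066-3p (right). H/R-LV-BMAL1 replicate 1 falls from 1.31% to 0.830% on leaving them out.

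The first comparison, H/R-LV-NC against LV-NC, asks what H/R changed in exosomes of control cells. Of the 192 members that passed the filter on low counts, 0 were called higher and 0 lower at an adjusted p under 0.05 in edgeR with TMM scaling, where 0% of all 1682 miRNAs were called in either direction. At an unadjusted p under 0.05, 7 members were higher and 5 lower, together 6.25% of members, against 5.11% and 2.08% of all miRNAs, together 7.19%. DESeq2 and limma-voom also called 0 members, where DESeq2 called 0.119% of all miRNAs higher and 0% lower. Scaled by total UMIs, which moved the median of all miRNAs to 0.36 and that of members to 0.40, edgeR again called 0 members, and 0.0595% of all miRNAs higher. With TMM the median log2 change was 0.05 for members and 0.01 for all miRNAs tested. Also with TMM, in 10 members every H/R-LV-NC library was above every LV-NC library, and in 19 every one was below. These were 5.21% and 9.90% of members, against 7.31% and 6.36% of all miRNAs. With total UMIs 24 members (12.5%) were above and 1 (0.521%) below, against 14.1% and 1.49% of all miRNAs.

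Values are given for the members with the smallest p in this comparison, none of which passed the adjusted test (adjusted p = 0.645 for each). miR-6972-3p, from the complement factor B gene Cfb, stood at 1.98, 0.988 and 8.15 CPM across LV-NC and at 8.5, 36.2 and 8.82 across H/R-LV-NC, a log2 difference of 2.15 ± 0.77. Its highest library rested on 50 UMIs, and the difference was 1.17 without it. miR-7091-3p had 16.9, 9.88 and 8.15 CPM against 19.8, 23.2 and 24.3, a difference of 0.96 ± 0.34. miR-7038-3p, from Eif3b of the translation initiation machinery, had 20.8, 23.7 and 22 against 35.4, 35.5 and 48 CPM. In the other direction, miR-7058-3p differed by -0.91 ± 0.35, and miR-6939-3p, from the kinase gene Akt1, by -0.94 ± 0.38. miR-6951-3p, from the antizyme inhibitor gene Azin1, stood at 10.9, 14.8 and 8.15 CPM across LV-NC, against 2.84, 6.52 and 5.51 across H/R-LV-NC, on 15 UMIs or fewer in each.

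The second comparison set H/R-LV-BMAL1 beside H/R-LV-NC and asks what BMAL1 changed under H/R. With TMM 0 of the 192 members were called higher and 0 lower, where edgeR called 2.14% of all 1682 miRNAs higher and 0.238% lower. At an unadjusted p under 0.05, 13 members were higher and 29 lower, together 21.9% of members, against 14.3% and 13.6% of all miRNAs, together 27.8%. limma-voom also called 0 members, and 2.97% of all miRNAs higher and 0.476% lower, while DESeq2 called 8 members higher and 11 lower, where it called 9.99% of all miRNAs higher and 4.76% lower. Restricting edgeR to a mean of at least 50 UMIs gave 0 members higher and 6 lower of 77, where 6.12% of 703 miRNAs were called higher and 4.13% lower. Without H/R-LV-BMAL1 replicate 1, 2 members were called higher and 1 lower, where 7.31% of all miRNAs were called higher and 0.69% lower. With TMM and all libraries, the median log2 difference was -0.14 for members and -0.04 for all. On the same scaling, 22 members had every H/R-LV-BMAL1 library above every H/R-LV-NC library and 33 below. These were 11.5% and 17.2% of members, against 14.7% and 14.9% of all miRNAs. With total UMIs 0 members were above and 99 (51.6%) below, against 4.76% and 44.2% of all miRNAs.

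The smallest adjusted p in this comparison belonged to miR-7062-3p, at 0.0703, with a log2 difference of 6.49 ± 1.78. It rested on H/R-LV-BMAL1 replicate 1, without which the difference was 0.45. The next by p were all lower with BMAL1. miR-7091-3p stood at 19.8, 23.2 and 24.3 CPM across H/R-LV-NC and at 9.83, 10.5 and 9.28 across H/R-LV-BMAL1, so that the groups were apart and H/R-LV-BMAL1 was near the 8.15 to 16.9 of LV-NC. Its log2 difference was -1.18 ± 0.33 with an adjusted p of 0.0711. miR-7056-3p, from Ptpn5, a neuronal tyrosine phosphatase gene, had 53.2, 71.7 and 66.7 CPM against 27.6, 27.1 and 29.2, a difference of -1.19 ± 0.34 (adjusted p = 0.0739).

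miR-7092-3p, from Fam50a, stood at 16.3, 30.4 and 71.7 CPM across H/R-LV-NC and at 9.83, 15.1 and 13.3 across H/R-LV-BMAL1. miR-7046-3p, from the 77-base intron of Rabac1, a Rab-binding membrane protein gene, had 22, 25.3 and 140 CPM against 12.4, 16.6 and 11.5. In both, H/R-LV-NC replicate 3 was the high library. The log2 differences were -1.64 ± 0.48 and -2.21 ± 0.65, and -0.87 and -0.80 without that library. miR-6946-3p, described above, differed by -1.13 ± 0.35 (adjusted p = 0.0857), and by -0.65 without the same library. The abundant members miR-7058-3p and miR-6896-3p pointed the other way with TMM, by 1.09 ± 0.35 (adjusted p = 0.0905) and 1.03 ± 0.36 (adjusted p = 0.106). Both differences were smaller with total UMIs, where the groups overlapped.

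The count of calls in this comparison moved most with the scaling to total UMIs. Scaled by total UMIs, as the deposited CPM are, 1 member was called higher and 66 lower in edgeR, the latter 34.4% of the 192, where 2.26% of all miRNAs were called higher and 28.6% lower. That scaling moved the median of all miRNAs to -0.87 and that of the members to -0.99. The member called higher was miR-7062-3p, whose groups overlapped. Among those called lower, miR-7091-3p differed by -2.02, miR-7056-3p by -2.07, miR-6946-3p by -1.93 and miR-7046-3p by -3.0. miR-6923-3p and miR-6983-3p, which TMM left at 0.05 and -0.82, also passed, at -0.83 and -1.83. The count rested on single libraries, and the share of all miRNAs moved with it. Without H/R-LV-BMAL1 replicate 2 or 3, 0 members were called lower, where 0.229% and 0.976% of all miRNAs were. Without H/R-LV-NC replicate 2, 12 members (6.25%) were called lower, against 6.06% of all miRNAs, and without H/R-LV-NC replicate 3, 32 members (16.6%), against 16.3%. The other 5 omissions gave 52 to 86 members, or 26.9% to 44.3%, against 24.4% to 37.3% of all miRNAs.

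The 5p arms of the same hairpins had 2 of 191 called higher and 0 lower with TMM, and 0 higher and 62 lower with total UMIs. Their median log2 difference was -0.32 with TMM and -1.16 with total UMIs. By place in the intron, the TMM medians were -0.20 for the 10 members from introns filled from end to end, -0.21 for the 140 tested members of tailed form and -0.16 for 36 with neither arm at an intron boundary. The 6 members whose 5p arm starts at an intron start had a median of 0.18. No difference between these classes was tested.

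**Figure D5:**
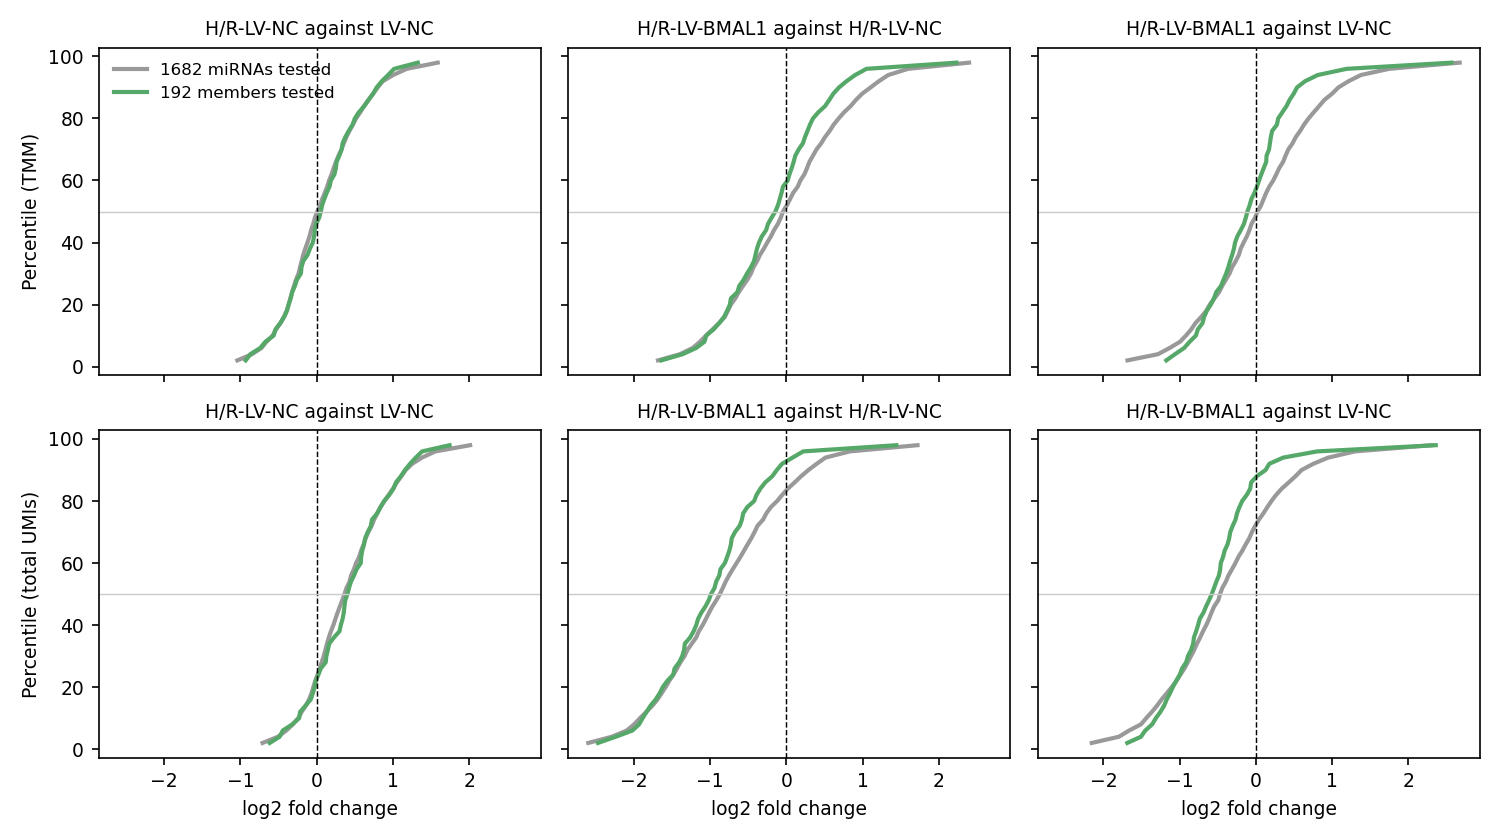
Percentiles of the log2 fold change (2nd to 98th) for the 192 members tested (green) and all 1682 miRNAs tested (grey), by comparison (columns), with TMM scaling (top) and total UMIs (bottom). With TMM the curves cross 50% near 0, and with total UMIs at 0.40, -0.99 and -0.58 for members and 0.36, -0.87 and -0.47 for all miRNAs, from left to right.

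The third comparison, H/R-LV-BMAL1 against LV-NC, shares libraries with both others. With TMM 0 members were called higher and 0 lower, where edgeR called 0.178% of all miRNAs higher and 0.0595% lower. At an unadjusted p under 0.05, 10 members were higher and 15 lower, together 13% of members, against 13.3% and 10.1% of all miRNAs, together 23.4%. limma-voom also called 0 members, and 0.238% of all miRNAs higher, and DESeq2 called 4 higher and 4 lower, where it called 5.53% and 3.15% of all miRNAs. Without H/R-LV-BMAL1 replicate 1, edgeR called 0 members, and 3.45% of all miRNAs higher and 0.345% lower. A mean of at least 50 UMIs gave 0 members as well, where 0.996% of 703 miRNAs were called higher and 0.427% lower. With TMM and all libraries, the members' median was -0.11, against 0.02 for all. On the same scaling, H/R-LV-BMAL1 lay above LV-NC in every library in 8 members (4.17%) and below in 30 (15.6%). Of all miRNAs, 14.1% and 11.5% did so. With total UMIs 1 member (0.521%) was above and 73 (38.0%) below, against 6.18% and 29.8% of all miRNAs.

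miR-7083-3p, from the guanine exchange factor gene Dock6, had the smallest adjusted p here, 0.0679. It stood at 11.9, 14.8 and 8.15 CPM across LV-NC, at 21.3, 19.5 and 17.1 across H/R-LV-NC and at 38.7, 30.9 and 23.9 across H/R-LV-BMAL1, so that no group overlapped another. The log2 difference from LV-NC was 1.43 ± 0.34 with TMM and 1.00 with total UMIs, where those groups overlapped. miR-7013-3p, which stops 3 bases short of an intron end, stood at 10.9, 11.9 and 15.5 CPM across LV-NC and at 4.44, 6.03 and 5.30 across H/R-LV-BMAL1, on 11 to 19 UMIs in each. It differed by -1.28 ± 0.33 (adjusted p = 0.0718). miR-6979-3p, from the formin gene Diaph1, had 32.7, 25.7 and 53.8 CPM against 18.7, 16.9 and 11.9, a difference of -1.24 ± 0.35. miR-7055-3p, from Slc17a7, a vesicular glutamate transporter gene, differed by -1.28 ± 0.38, and miR-7093-3p, from Armcx3, by -1.08 ± 0.32. miR-7062-3p differed by 6.56 ± 1.79, and by 0.51 without H/R-LV-BMAL1 replicate 1. With total UMIs 3 members were called lower, miR-7013-3p at -1.79, miR-7093-3p at -1.60 and miR-6944-3p at -1.37, and 0 higher, where 4.58% of all miRNAs were called lower and 1.66% higher. Leaving out any single LV-NC library, or H/R-LV-BMAL1 replicate 2 or 3, left 0 of these calls, where 0.0573% to 2.31% of all miRNAs were called lower, and leaving out H/R-LV-NC replicate 2 gave 6 (3.12%), against 6.47% of all miRNAs.

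Members that share a seed had differences of either sign. Of the CACCCUG group in the comparison with H/R-LV-NC, miR-7018-3p differed by 1.49 (adjusted p = 0.155), miR-7068-3p by 0.81 (adjusted p = 0.132) and miR-7023-3p, from the phosphoinositide kinase gene Pik3cd, by -1.13 (adjusted p = 0.0936). Their levels averaged 99.4, 52.1 and 27.2 CPM. In the CUGUUCU group miR-6932-3p differed by -0.24 and miR-7039-3p by 0.67. miR-7015-3p and miR-6992-3p share CUCACUG and differed by 3.36 and -1.34, the first through H/R-LV-BMAL1 replicate 1. The remaining pairs were miR-6927-3p and miR-6945-3p (1.11 and -0.11), miR-7048-3p and miR-7077-3p (-0.88 and -0.73), and miR-7092-3p and miR-6935-3p (-1.64 and -0.73). No member of these groups passed the adjusted test in any comparison with TMM.

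Mirtrons outside this run of numbers gave a point of reference. miR-877-3p, from a well-known mammalian mirtron, had 251 to 519 CPM, with a median of 391. miR-1224-3p had 35 to 53 CPM and miR-702-3p 27.1 to 118. With TMM 0 of the 6 arms of miR-877, miR-1224 and miR-702 passed in any comparison in edgeR. With TMM miR-877-3p differed by 0.50 ± 0.28 between H/R-LV-BMAL1 and H/R-LV-NC (adjusted p = 0.271 in edgeR), and with total UMIs by -0.33 (adjusted p = 0.194). Every H/R-LV-BMAL1 library lay above the H/R-LV-NC libraries with TMM, and below them with total UMIs. With total UMIs miR-1224-5p (-1.85, adjusted p = 0.0412) and miR-702-3p (-1.42, adjusted p = 0.0181) were called lower in that comparison.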

How the data were processed

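The authors deposited UMI counts per mature miRNA for 9 exosomal libraries made with the QIAseq miRNA kit, and CPM, which equal each count scaled to the library total. Bowtie 1.3.0, cutadapt 2.7 and edgeR are named in the processing notes of the submitters; the genome build, and how reads matching several miRNAs were assigned, are not given in the sources used here. All count columns were assigned to a library, and 0 were left unused. Within each group every pair of libraries differed by more than sampling noise (chi-square per degree of freedom 9.80 to 156).

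Counts were analysed with edgeR 4.0.16 in R 4.3.3: filterByExpr with groups (1682 miRNAs kept, 296 removed; miR-6901-3p, miR-6903-3p, miR-6904-3p, miR-6905-3p and miR-7037-3p of the members were removed), TMM scaling, and 1 quasi-likelihood fit of all 9 libraries with a mean per group. A miRNA was called at a Benjamini-Hochberg adjusted p under 0.05 over all miRNAs tested. Printed CPM of members and their 5p arms in single libraries, and the share of summed CPM held by 1 library, are scaled by TMM. Mean and median levels, and the CPM of markers and of miR-877, miR-1224 and miR-702, are scaled to total UMIs. Alternatives were total UMIs, RLE and upper-quartile scaling, omission of the filter, a minimum mean of 50 UMIs, DESeq2 1.42.0, limma-voom (limma 3.58.1), the replicate number as a block, a fit of the 2 groups compared, and each library left out. Leaving out libraries with total UMIs, and sums without miR-7062-3p and miR-7066-3p, were added after seeing the data. The fit was tested on simulated counts. It found 2.06% to 4.55% of miRNAs changed by 1 on the log2 scale, and 48.6% to 68% of those changed by 2. In each comparison 1 to 6 unchanged miRNAs were called.

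The members, lists and tests were chosen with earlier results of these data known. The text names the 10 members of highest mean CPM, the 6 of smallest p in each comparison with a mean of at least 10 UMIs, members sharing a seed, and the mirtrons miR-877, miR-1224 and miR-702. miR-7022-3p, miR-7033-3p, miR-7024, miR-6944-3p, and the hairpins named for their arm balance were chosen after their values were seen. Sequences and positions are from RefSeq on GRCm38.p6, and introns from GENCODE M21. Figures were drawn in matplotlib 3.10.9 under Python 3.11.15, with tables from pandas 2.3.3 and numpy 2.4.6.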

Additional observations from a re-analysis of the deposited data

How the results depend on the processing

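In the comparison of H/R-LV-BMAL1 with H/R-LV-NC, the members called were 0 with TMM, 67 with total UMIs, 19 with DESeq2 and 6 with a mean of at least 50 UMIs. In that order, 2.14%, 2.26%, 9.99% and 6.12% of all miRNAs tested were called higher, and 0.238%, 28.6%, 4.76% and 4.13% lower. Against LV-NC the counts were 0, 3, 8 and 0. There 0.178%, 1.66%, 5.53% and 0.996% of all miRNAs tested were called higher, and 0.0595%, 4.58%, 3.15% and 0.427% lower. RLE and upper-quartile scaling, no filter, limma-voom and a fit of the 2 groups compared called 0 members in each of the 3 comparisons. Leaving out single libraries with TMM gave 0 to 3 members in the comparison with H/R-LV-NC, and 0 in the other comparisons. The 3 were called without H/R-LV-BMAL1 replicate 1, where 7.31% of all miRNAs were called higher and 0.69% lower. The members' median log2 change with total UMIs was 0.40, -0.99 and -0.58 in the order of the report. Over the omissions with TMM these medians ran from -0.03 to 0.08, -0.21 to -0.09 and -0.19 to -0.07. The cause of these differences was not tested. The LV-NC share of UMIs was 0.643% without the 5 most abundant members. For the 6 members of smallest p in each comparison, 312 values under alternatives gave 0 changes of direction. Of these values 20 newly passed the test and 292 stayed on the same side of it. These members were picked for a small p, and other named miRNAs were not counted here. Between H/R-LV-BMAL1 and H/R-LV-NC, miR-877-3p changed sign, from 0.50 with TMM to -0.33 with total UMIs.

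The titles give the same replicate numbers to each group. Same-numbered libraries correlated in their deviations from the group means by -0.166 to 0.134, and differently numbered ones by -0.204 to 0.214. Deviations from a mean of 3 libraries cannot settle whether same-numbered libraries were paired. With the replicate number as a block, 0 members were called in each comparison with TMM, and the medians were 0.03, -0.20 and -0.09. With total UMIs the block gave 24 members lower (12.5%) in the comparison with H/R-LV-NC, where it called 14.3% of all miRNAs lower, and 0 in each of the others.

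Depth limits the low members, since 6 averaged under 10 UMIs and 77 of 197 averaged 50 or more. A p above the threshold does not show equal levels.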
